A study of Mus musculus with 6 samples.

Results

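In samples of mouse esophageal epithelium, 10 marker genes of macrophages and Langerhans cells were examined among the 19938 genes measured. They were *Lyz2*, *Cd68*, *Cd207*, *Cd14*, *Adgre1*, *Csf1r*, *Itgax*, *Mrc1*, *Cd163* and *Fcgr3*. The genes were chosen by name, and the rule for each was the probe set naming only that gene with the highest mean over the 6 arrays. Each of the 10 had 1 such probe set, so that mean decided nothing. Their adjusted p-values come from a fit over all 19938 genes and describe them, as the choice of genes was not independent of these data.

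Esophageal epithelium came from 6 mice of mixed genetic background, 3 months old, with 1 array for each. All 6 carried loxP sites in both copies of *Klf4*, a Krüppel-like transcription factor of squamous epithelium. The 3 mutants also carried ED-L2-Cre, a transgene that drives Cre in squamous epithelial cells, and the 3 controls were sex-matched littermates without Cre. Each group held 1 male (replicate 1) and 2 females (replicates 2 and 3). Cre was thus directed to keratinocytes, and immune cells reached the arrays only as far as they were in the sampled tissue. The signal of *Klf4* was not lower on the mutant arrays (10.28 to 10.50, against 9.75 to 10.15 on the control arrays), and the sources used here do not say whether its probes lie in the deleted part. Control and mutant below name the arrays so labelled, and every direction rests on those labels.

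Macrophages are phagocytes that arise from embryonic precursors or from blood monocytes, and Langerhans cells are related phagocytes that live inside squamous epithelium and carry antigen to lymph nodes. Both depend on the receptor encoded by *Csf1r*, which binds the growth factors CSF1 and IL-34. IL-34 is made by keratinocytes and is the ligand that maintains Langerhans cells in the skin. Several of the markers are not exclusive to these cells: *Mrc1* is also expressed by some endothelial cells, *Cd68* encodes a lysosomal glycoprotein found at lower levels outside phagocytes, and *Cd14* can be expressed by epithelial cells.

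The markers did not move together. *Cd68* rose and *Lyz2* fell in the mutants, and the other 8 did not pass the test. On the log2 scale *Cd68* was higher by 1.11 ± 0.17 (SE, 2.16-fold; limma adjusted p = 0.0304, n = 3 each), and *Lyz2* was lower by 1.57 ± 0.27 (2.97-fold; adjusted p = 0.0463). The median difference over the 10 genes was -0.019, beside 0.022 over all genes. Thus 2 of the 10 markers passed, where 1.04% of all genes did (0.366% higher and 0.672% lower). In 3 of the 10 the groups did not overlap, as in 18.1% of all genes. Of these *Cd68* and *Itgax* lay higher in the mutants (10.1% of all genes did) and *Lyz2* lower (8.0%).

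The stretches of promoter that precede the start sites of *Lyz2* and *Cd68* are shown because these 2 genes moved in opposite directions. *Lyz1*, the neighbouring copy of *Lyz2*, is shown because its signal can be shared with *Lyz2*, and *Cd207* because it defines Langerhans cells. Each is the 250 bases before the annotated start, 5′ to 3′ on the gene's strand, from RefSeq (GRCm38.p6). Capitals mark AGGAAG, a core of sites for the myeloid factor PU.1 and other ETS factors, and GGGTG, a core of sites for Krüppel-like factors, each on either strand.

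Lyz2: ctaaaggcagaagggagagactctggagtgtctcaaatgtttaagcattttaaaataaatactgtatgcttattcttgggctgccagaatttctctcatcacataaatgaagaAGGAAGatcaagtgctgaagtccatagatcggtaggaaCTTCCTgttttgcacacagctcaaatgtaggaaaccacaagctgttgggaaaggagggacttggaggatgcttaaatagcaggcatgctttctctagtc

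Lyz1: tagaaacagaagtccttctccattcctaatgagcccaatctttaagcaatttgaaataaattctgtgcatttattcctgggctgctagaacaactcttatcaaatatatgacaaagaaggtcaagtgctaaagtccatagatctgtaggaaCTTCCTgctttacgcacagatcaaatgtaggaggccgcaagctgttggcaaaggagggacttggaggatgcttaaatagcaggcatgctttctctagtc

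Cd68: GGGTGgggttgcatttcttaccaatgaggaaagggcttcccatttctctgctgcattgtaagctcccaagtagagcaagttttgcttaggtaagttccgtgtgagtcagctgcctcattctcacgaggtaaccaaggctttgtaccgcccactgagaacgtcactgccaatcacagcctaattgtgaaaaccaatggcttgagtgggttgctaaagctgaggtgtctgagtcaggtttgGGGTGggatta

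Cd207: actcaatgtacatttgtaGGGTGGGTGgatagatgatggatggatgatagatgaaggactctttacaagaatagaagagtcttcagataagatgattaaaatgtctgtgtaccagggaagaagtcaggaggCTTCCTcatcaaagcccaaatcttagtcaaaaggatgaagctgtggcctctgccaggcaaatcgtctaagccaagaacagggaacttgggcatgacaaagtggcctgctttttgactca

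The *Lyz2* stretch (chr10:117282273-117282522, minus strand) held 2 matches to AGGAAG and 0 to GGGTG. The *Cd68* stretch (chr11:69666171-69666420, minus strand) held 0 and 2. The *Cd207* stretch (chr6:83677858-83678107, minus strand) held 1 and 2, the 2 GGGTG matches sharing a base, and no AGGAAG match overlapped a GGGTG match. The *Lyz1* stretch (chr10:117292869-117293118, minus strand) held 1 and 0. Aligned without gaps, it was identical to that of *Lyz2* at 152 of 250 positions and at 75 of the last 80. Windows of this kind were matched for 7 of the 10 markers, of which 4 held AGGAAG and 2 held GGGTG. Of all 32851 windows of this length, 29.5% held AGGAAG and 52.0% held GGGTG. A match is a string of letters in a window and was not tested as a binding site.

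*Lyz2* encodes lysozyme M, the bacteriolytic enzyme of macrophages, monocytes and neutrophils. Its log2 signal was 7.62, 8.19 and 8.54 on the control arrays and 6.93, 6.16 and 6.55 on the mutant arrays (probe set 10372648). All 3 mutants lay below all 3 controls, and the male of each group lay nearest to the other group. The means were 8.12 ± 0.47 and 6.55 ± 0.39 (SD, n = 3 each). *Lyz1*, which encodes the lysozyme of Paneth cells and is nearly identical in sequence, read 5.80, 6.78 and 7.03 in controls and 5.57, 5.03 and 5.90 in mutants. It differed by -1.04 ± 0.34 (SE; adjusted p = 0.25) and its groups overlapped. Probes for the 2 lysozyme genes can share signal, so the value of either alone is uncertain.

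*Cd68* encodes a heavily glycosylated membrane protein of lysosomes and endosomes and is a common marker for staining macrophages. Its signal was 6.79, 6.73 and 6.86 on the control arrays and 7.58, 8.25 and 7.88 on the mutant arrays (probe set 10387536). The controls lay close together, and every mutant lay above every control. The means were 6.79 ± 0.07 and 7.90 ± 0.34 (SD, n = 3 each). *Cd68* lies within 2000 bases of *Eif4a1* and *Mpdu1* in the annotation. Those neighbours differed by 0.12 ± 0.09 and 0.25 ± 0.13 (log2, SE; adjusted p = 0.671 and 0.502). Of the 45 pairs of markers, *Lyz2* and *Cd68* had the lowest correlation over the 6 arrays (Pearson r = -0.94, a description over arrays of both genotypes).

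Both calls depended on single arrays, and neither gene passed with the replicate number as a block (limma adjusted p = 0.106 for *Lyz2* and 0.0692 for *Cd68*). *Lyz2* passed without control 1 (adjusted p = 0.026) and not without any other single array (adjusted p from 0.07 to 0.158), nor with sex as a covariate (adjusted p = 0.0761). It passed in the females alone (-2.01; adjusted p = 0.0247). *Cd68* passed without mutant 1 (adjusted p = 0.0297), not without any other array (0.0541 to 0.126), and not in the females alone (0.056). In each of these fits the direction was the same, with differences from -2.01 to -1.36 for *Lyz2* and from 0.94 to 1.27 for *Cd68*. In bulk tissue, fewer cells of a type and less RNA per cell cannot be told apart.

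**Figure D1:**
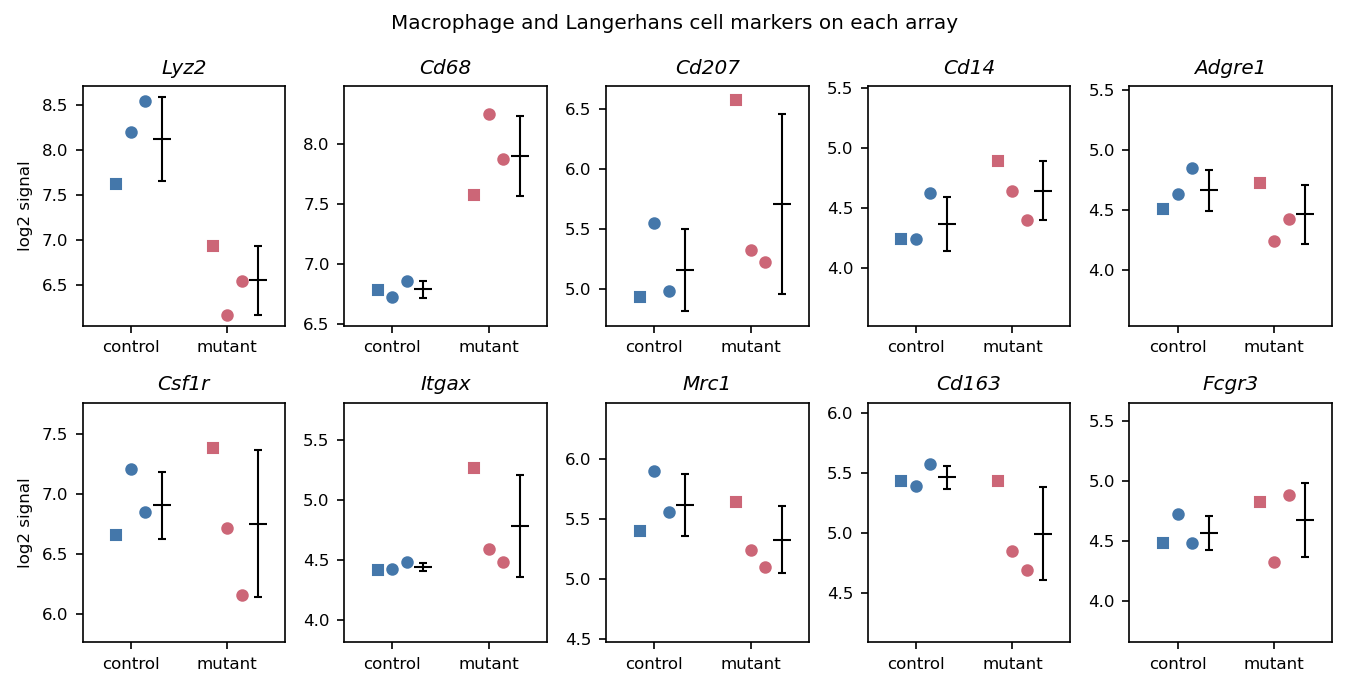
Log2 signal of the 10 markers on each array (vertical axes, each spanning at least 2 log2 units), for control (blue) and mutant (red) mice. Squares are males, circles females, and bars give the mean and SD of 3 arrays. The groups separate for *Lyz2*, *Cd68* and *Itgax*, and mutant 1, the male, stands above the other mutants for 8 of the 10 genes.

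Receptors and surface markers of macrophages did not pass. *Csf1r*, the receptor for CSF1 and IL-34, read 6.66, 7.21 and 6.85 in controls and 7.39, 6.72 and 6.16 in mutants. The highest and the lowest of its 6 values were both mutants, and the difference was -0.15 ± 0.29 (SE; limma adjusted p = 0.899; 95% interval -0.84 to 0.54). *Adgre1*, which encodes F4/80, an adhesion receptor of tissue macrophages, read 4.51, 4.63 and 4.85 in controls and 4.73, 4.24 and 4.43 in mutants. Its groups overlapped, with a difference of -0.20 ± 0.15 (adjusted p = 0.681). *Fcgr3*, encoding a low-affinity receptor for immunoglobulin G, read 4.49, 4.73 and 4.48 in controls and 4.82, 4.32 and 4.89 in mutants. It differed by 0.11 ± 0.17 (adjusted p = 0.852). Its relatives *Fcgr2b*, an inhibitory receptor, and *Fcgr4* differed by -0.039 ± 0.143 and -0.036 ± 0.125 (adjusted p = 0.947 and 0.945). *Cd14*, the coreceptor that passes lipopolysaccharide to TLR4, read 4.24, 4.24 and 4.62 in controls and 4.89, 4.65 and 4.40 in mutants, a difference of 0.28 ± 0.16 (adjusted p = 0.569). The means of *Adgre1*, *Fcgr3* and *Cd14* over the 6 arrays (4.56, 4.62 and 4.51) lay little above 4.35, the 40th percentile over probe sets. Single values of each lay under it. The mean of *Itgax*, given below, was 4.61.

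The scavenger receptors *Cd163* and *Mrc1*, which take up haemoglobin complexes and mannosylated glycoproteins and mark resident macrophages, had lower means in the mutants and did not pass. *Cd163* read 5.44, 5.39 and 5.57 in controls and 5.43, 4.85 and 4.69 in mutants. The female mutants lay below every control, and the male mutant lay among them. The difference was -0.47 ± 0.19 (SE; limma adjusted p = 0.359). *Mrc1* read 5.40, 5.90 and 5.56 in controls and 5.65, 5.24 and 5.10 in mutants, with overlapping groups and a difference of -0.29 ± 0.18 (adjusted p = 0.605).

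*Cd207* encodes langerin, the lectin of the Birbeck granules by which Langerhans cells are recognised. Its signal was 4.93, 5.55 and 4.99 on the control arrays and 6.57, 5.33 and 5.23 on the mutant arrays. One value, that of mutant 1, stood above the rest, and mutants 2 and 3 lay within the range of the controls. The difference was 0.55 ± 0.36 (SE; limma adjusted p = 0.62; 95% interval -0.28 to 1.38), and 0.12 without mutant 1. *Itgax*, encoding the CD11c integrin chain of dendritic cells and many macrophages, read 4.42, 4.43 and 4.48 in controls and 5.27, 4.59 and 4.49 in mutants. Its groups did not overlap, though mutant 3 was nearly level with control 3, and the difference was 0.34 ± 0.20 (adjusted p = 0.569), falling to 0.095 without mutant 1. The related integrin gene *Itgam* (CD11b) differed by 0.048 ± 0.155 (adjusted p = 0.94).

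Mutant 1, a male, held the highest of the 6 values for 4 of the 10 markers (*Cd207*, *Cd14*, *Csf1r* and *Itgax*), as it did for 16.7% of all genes. Mutants 2 and 3 held the lowest value for 3 markers each, and the share of all genes with this was not counted. The genotype difference, taken with its sign, was above that of the females in the male pair for 9 of the 10 markers, all but *Cd68*, and for 42.6% of all genes. For *Cd207* it was 1.64 in the male pair and 0.01 in the females. For *Csf1r* it was 0.72 and -0.59, for *Itgax* 0.85 and 0.08, and for *Lyz2* -0.69 and -2.01 (log2). *Csf1r*, *Adgre1* and *Mrc1* were higher in the male mutant than in the male control and on average lower in the female mutants than in the female controls, as was *Fcgr3* (-0.000665 in the females). Such a split was seen in 17.3% of all genes. The interaction of genotype and sex was tested over all genes with limma. It passed for 0 of the 10 markers and for 0.0451% of all genes (adjusted p for *Cd207* 0.535, for *Lyz2* 0.58, for *Csf1r* 0.694). At an unadjusted p under 0.05 the interaction held 6 of the 10 markers and 5.82% of all genes. With 1 male per genotype, sex and the individual animal cannot be told apart. The skeletal muscle genes *Mylpf* (2.57 in the male pair, -2.77 in the females) and *Myh2* (0.78 and -1.31) split in the same way. The summed linear signal of 11 skeletal muscle genes was 1054 on control 1 and 11703 on mutant 1, both males. It was 32077 and 16465 on the female controls and 8688 and 1280 on the female mutants. The part of muscle in the split of the markers was not tested.

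**Figure D2:**
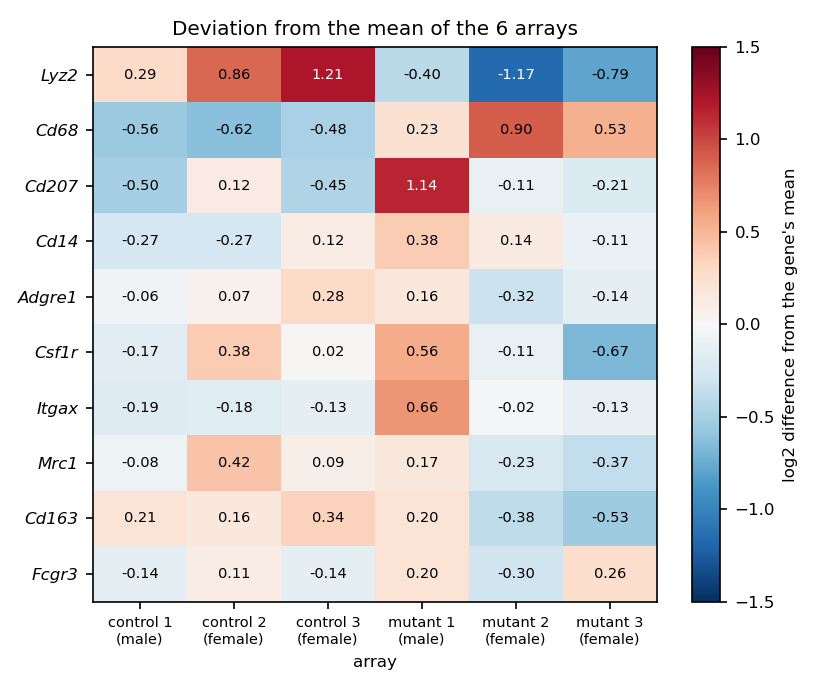
Each marker's log2 signal on each array minus its mean over the 6 arrays (colour and printed value). *Lyz2* and *Cd68* change sign between the genotypes, while *Cd207*, *Csf1r* and *Itgax* have their highest value on mutant 1.

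Over the 6 arrays, 32 of the 45 pairs of markers correlated above 0 (median Pearson r 0.26, highest 0.92 for *Cd207* and *Itgax*), as a description of arrays that share 2 genotypes and 2 sexes. *Csf1r* and *Mrc1* correlated at 0.87 and *Adgre1* and *Cd163* at 0.82. Among 13034 other genes over the dim limit (a mean log2 signal of 4.35, the 40th percentile over probe sets), *Cd207* was followed most closely by *H2-Aa*, *Cd44* and *Gask1b* (r from 0.98 to 0.99). *Csf1r* was followed by *Flot1*, *Usp19* and *Copz2*, *Adgre1* by *Slk*, *Urod* and *Ndufaf1*, and *Cd14* by *Acot10*, *Orc4* and *Phf20l1*, with r from 0.97 to 0.99. Between 41 and 130 genes had r above 0.9 with each of these 4 markers, so with 6 arrays a high r is common.

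Among growth factors and receptors of the lineage, the ligand gene *Il34* rose. It read 6.74, 6.81 and 7.08 in controls and 7.89, 7.76 and 7.64 in mutants, with every mutant above every control. The difference was 0.89 ± 0.12 (SE, 1.85-fold; limma adjusted p = 0.0243). The call was lost without each single array in turn (adjusted p from 0.054 to 0.0868) and in the females alone (0.141). *Csf1*, the other ligand of the receptor, read 5.54, 5.75 and 5.61 in controls and 5.84, 5.07 and 5.04 in mutants. It differed by -0.32 ± 0.21 (adjusted p = 0.639), the male mutant lying above and the female mutants below every control. *Tgfb1*, whose product Langerhans cells need, differed by 0.077 ± 0.140 (adjusted p = 0.89). Of the 14 genes on this list 1 rose, none fell and 13 did not pass (median -0.022).

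Among the chemokines and receptors that guide monocytes and Langerhans cells, *Ccl6*, a chemokine gene expressed by myeloid cells, fell. It read 8.82, 8.70 and 8.58 in controls and 6.75, 6.67 and 6.44 in mutants. The groups were far apart and the spread within each was small (SD 0.12 and 0.16, n = 3 each). The difference was -2.08 ± 0.12 (SE, 4.22-fold lower; adjusted p = 0.000691), alike in the male pair (-2.07) and the females (-2.08), and it passed in all 16 alternatives tried. The other 15 of 16 genes did not pass, and the median was 0.079.

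In the lipopolysaccharide recognition list, *Traf6*, encoding an adaptor ligase downstream of TLR4 and IL-1 receptors, fell by 0.71 ± 0.12 (SE; adjusted p = 0.0487), as 1 of 14 genes (median 0.013). That call was lost with median centring of the arrays (adjusted p = 0.103), in the females alone (0.162) and without each single array in turn (0.0544 to 0.191). The partners of CD14 did not pass. *Tlr4*, the receptor itself, differed by -0.035 ± 0.222 (adjusted p = 0.969) and turned to 0.010 with quantile normalization. *Ly96*, encoding the MD-2 subunit that holds lipopolysaccharide, differed by 0.76 ± 0.34 (adjusted p = 0.424).

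Other myeloid lists held no gene past the threshold. For the list counts at an unadjusted p that follow, 2476 of all 19938 genes had an unadjusted limma p under 0.05. Of 30 other macrophage and monocyte markers, 12 were higher, 18 lower and 30 did not pass (median -0.037; 6 had an unadjusted p under 0.05). Its smallest p-values were those of *Pf4*, a chemokine gene of platelets and some resident macrophages (-0.53 ± 0.11, SE; adjusted p = 0.0932), and *Lyve1*, a hyaluronan receptor gene of lymphatic vessels and of some resident macrophages (-0.72 ± 0.22; adjusted p = 0.217). *Ptprc*, encoding the pan-leukocyte CD45, read 4.26, 4.94 and 4.82 in controls and 5.33, 4.92 and 4.65 in mutants, and was again highest on mutant 1. Its difference was 0.30 ± 0.22 (adjusted p = 0.68). Of 25 dendritic and Langerhans cell genes 19 were higher and 6 lower (median 0.055, where 55.5% of all genes were higher; 5 at an unadjusted p under 0.05). *Epcam*, an adhesion gene of epithelial cells and also of Langerhans cells, differed by 0.63 ± 0.11 (adjusted p = 0.0547) and *Ly75*, encoding the endocytic receptor DEC-205, by 0.64 ± 0.13 (adjusted p = 0.0831). The mean of *Ly75* lay under the dim limit.

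Of 18 scavenger and lectin receptor genes (median -0.043) and 12 lysosomal genes (median -0.077) none passed; 4 and 1 had an unadjusted p under 0.05. The fatty acid transporter gene *Cd36* differed by -1.24 ± 0.29 (SE; adjusted p = 0.12) and *Mrc2*, a collagen uptake receptor gene related to *Mrc1*, by -0.44 ± 0.11 (0.139). The lysosomal protease gene *Ctsd* differed by 0.21 ± 0.10 (0.463) and the hexosaminidase gene *Hexa* by -0.40 ± 0.14 (0.289). *Cd68*, itself a lysosomal protein gene, rose while no gene on the lysosomal list passed. That difference between genes was not tested. Of the 12 lysosomal genes, 5 were higher and 7 lower in the mutants. Their summed linear signal was 16895 to 17300 in controls and 17889 to 17994 in mutants. Of 15 macrophage activation genes 10 were higher and none passed (median 0.061; 5 at an unadjusted p under 0.05). *Chil3*, a chitinase-like gene of alternatively activated macrophages, read 3.28, 3.92 and 3.01 in controls, all under the dim limit, and 7.30, 6.21 and 4.69 in mutants. The groups were separate and the mutants were spread widely, and the difference of 2.67 ± 0.59 did not pass (adjusted p = 0.102). It passed without mutant 3 (3.35; adjusted p = 0.0341). *Retnla*, another gene of alternative activation, read 6.99, 7.98 and 8.44 in controls and 7.57, 5.88 and 6.15 in mutants (-1.27 ± 0.50; adjusted p = 0.349). In the females alone it was -2.20 and passed (adjusted p = 0.0221), and the male pair differed by 0.58; the interaction of genotype and sex did not pass (adjusted p = 0.172).

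**Figure D3:**
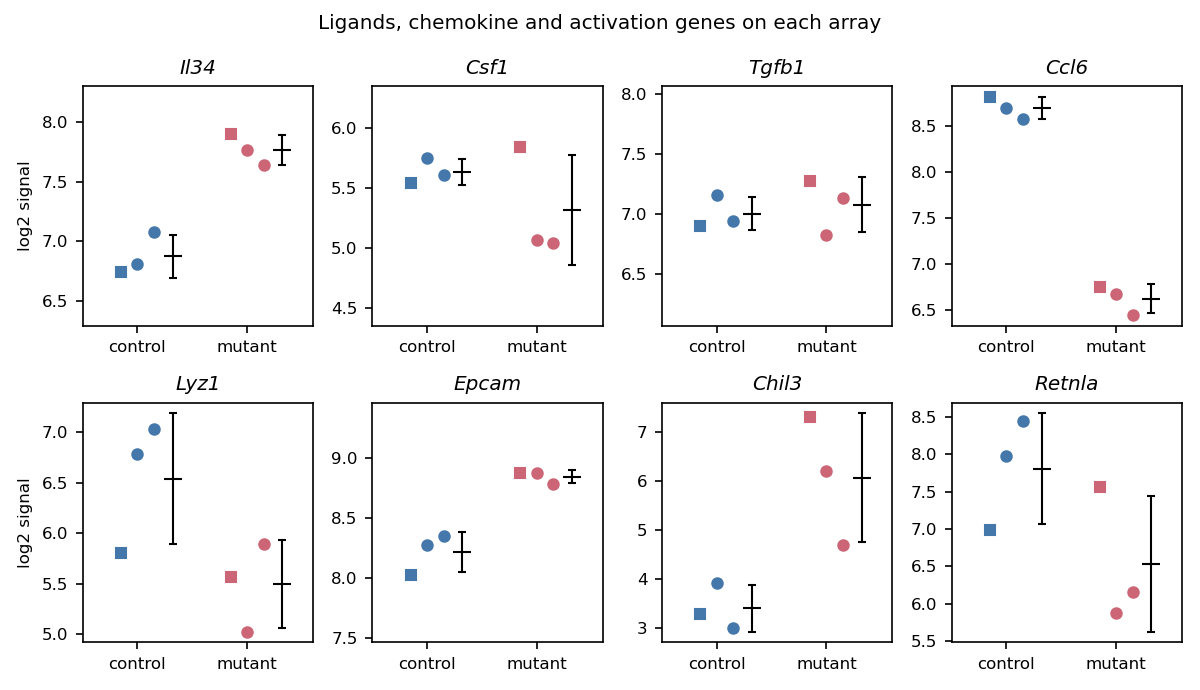
Log2 signal on each array of growth factor, chemokine, lysozyme and activation genes beside the markers (vertical axes; control blue, mutant red, squares males, bars mean and SD of 3 arrays). *Il34* and *Ccl6* passed the test, in opposite directions, and the other 6 genes did not.

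Markers of other cell types differed between the groups beside these results. All 12 squamous identity genes lay over the dim limit, with *Krt13* between 13.65 and 13.87 and *Krt5* between 12.21 and 12.56, and none passed (median 0.029; 3 at an unadjusted p under 0.05). All 15 fibroblast genes were lower in the mutants and 3 fell (*Col1a2* by 1.30 ± 0.19, *Sparc* by 1.10 ± 0.17 and *Thy1* by 0.58 ± 0.10; SE, limma adjusted p = 0.0273, 0.0312 and 0.0479). *Col1a2* and *Sparc* passed without control 1 and not without any other single array (adjusted p up to 0.118 and 0.134), and *Thy1* passed in 4 of 16 alternatives and lost its call without each single array in turn (up to 0.212). The median of the list was -1.10, and none of the 15 lay under the dim limit. All 15 had an unadjusted limma p under 0.05, as had 2476 of all 19938 genes. For 12 of the 15 every mutant lay below every control, as for 8.0% of all genes. The summed linear signal of the fibroblast list was 5176 to 8652 in controls and 3055 to 3434 in mutants. Within the controls it was lowest on control 1, as was *Lyz2*. Its part in the fall of *Lyz2* was not tested.

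On the smooth muscle list 8 of 9 genes were lower and none passed (median -0.78; 8 at an unadjusted p under 0.05). On the skeletal muscle list all 11 were lower and none passed (median -0.73; 0 at an unadjusted p under 0.05). Their summed signal ran from 1054 to 32077 in controls and from 1280 to 11703 in mutants, so muscle signal differed widely between animals of 1 group. Of 11 endothelial genes *Flt1*, a VEGF receptor gene, fell by 1.90 ± 0.19 (SE; adjusted p = 0.00982) and 10 did not pass, among them *Pecam1* (0.011 ± 0.141; median of the list -0.042). On the adipocyte list (5 genes, none passing, 1 at an unadjusted p under 0.05, median -0.015), the summed signal was 99.2 to 112 in controls and 170 to 393 in mutants. It followed *Fabp4*, a fatty acid carrier gene also expressed by some macrophages and endothelial cells (2.40 ± 0.44; adjusted p = 0.063), while *Adipoq* stayed under the dim limit. The part of these cells in the rise of *Cd68* was not tested.

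Other leukocyte lists held no call. None of 10 neutrophil genes passed (median 0.086, 2 at an unadjusted p under 0.05, 9 under the dim limit), nor did any of 16 T and NK cell genes (median 0.032, 0 and 12), of 7 B and plasma cell genes (median 0.012, 0 and 6) or of 9 mast cell genes (median -0.034, 2 and 8). The neutrophil list's summed signal was 207 to 352 in controls and 352 to 486 in mutants. Its single gene over the limit was *Cxcr2*, a chemokine receptor gene expressed by neutrophils (0.77 ± 0.33, SE, limma adjusted p = 0.394). Which cells gave the signal of *Cxcr2* was not tested. *Cd3e*, of the T cell receptor complex, differed by -0.13 ± 0.18 and *Cd79a*, of the B cell receptor, by -0.015 ± 0.114 (adjusted p = 0.845 and 0.975). The mast cell protease gene *Mcpt4* differed by -0.93 ± 0.18 (adjusted p = 0.0717). The mast cell list's summed signal was 144 to 156 in controls and 132 to 134 in mutants, with 8 of its 9 genes under the dim limit.

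**Figure D4:**
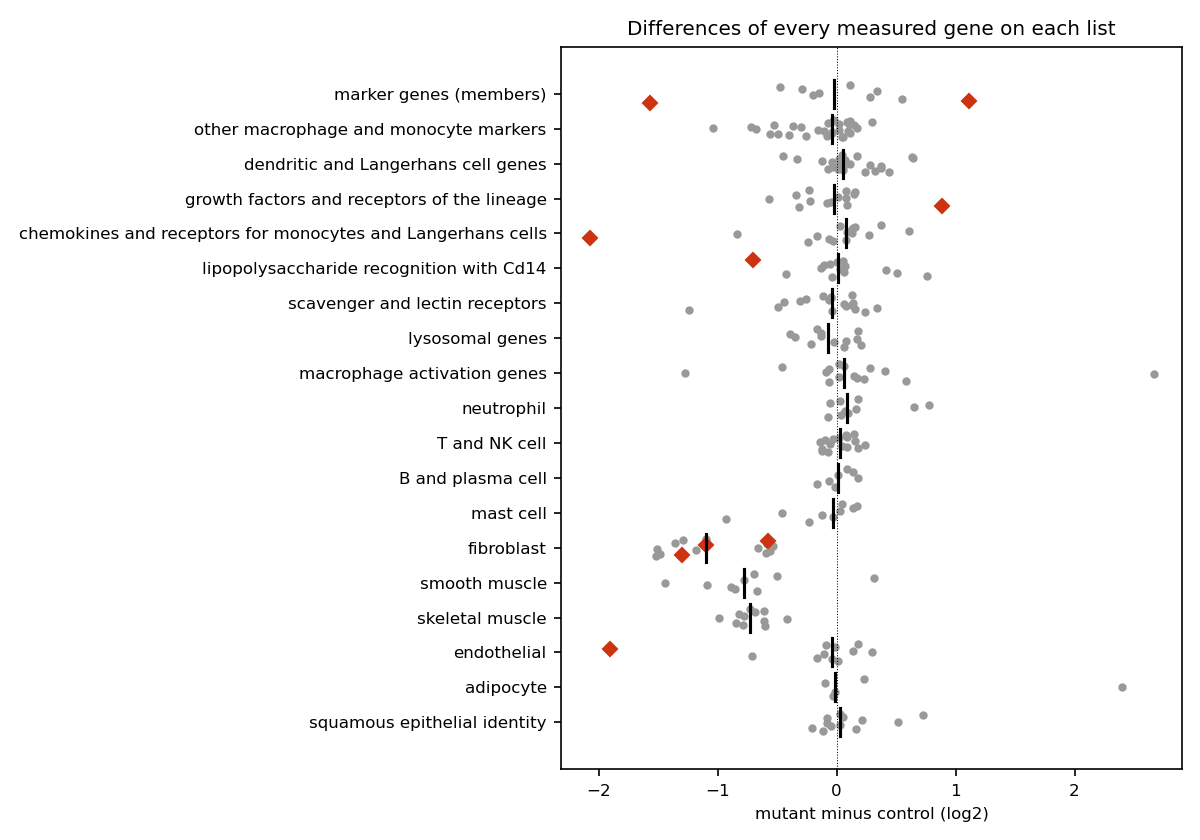
Difference between mutant and control (log2, horizontal axis) of every measured gene on the marker list and on 18 related lists; red diamonds passed an adjusted p of 0.05, grey points did not, and the black bar is the median. The markers have 1 gene past the threshold on each side and a median near 0, while all 15 fibroblast genes lie below 0.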

How the data were processed

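The deposited table holds log2 values made by the authors for 28853 probe sets on 6 arrays. Partek 6.4 is named per the submitters' processing notes; how background and arrays were adjusted is not stated there, and that choice can shrink differences between weak signals. That the scale is log2 follows from the range of the values. From each mouse 100 ng of RNA was labelled after oligo(dT) priming, per the labels' protocols. Arrays have no read depth; precision is limited by having 3 per group.

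Names came from GEO's annotation of the platform, brought to GRCm38.p6 symbols by Entrez identifier. Of the probe sets 21789 named 1 gene (21698 identifiers matched), 1621 several and 5443 were unnamed here. For the 999 genes with several probe sets the one of highest mean was used. Differences were fitted on all 19938 genes with limma 3.58.1 in R 4.3.3 (lmFit, eBayes, two-sided, genotype only), with Benjamini-Hochberg adjustment and a threshold of 0.05. An exact permutation test of 3 against 3 cannot go below 0.1 and was not used. On simulated data for this comparison (19938 genes, 50 changed per size), changes of 0.5, 1, 2 and 3 were recovered in 20%, 88%, 100% and 100%. The simulated noise was normal and independent between arrays, with each gene's moderated SD, and held no differences of sex or tissue make-up. These rates are for genes drawn at random and need not hold for a variable marker. On the real arrays *Chil3* (2.67) and *Fabp4* (2.40) did not pass.

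The markers and lists were chosen with earlier results of these data known. The naming rule took the markers, *Klf4*, up to 4 passing genes of each list (or the 2 of smallest p where none passed), and fixed relatives, ligands, partners, defining genes and genes of like pattern. *Adipoq*, *Eif4a1* and *Mpdu1* were added after values were seen. Of 263 entries on the 18 related lists, 249 were measured. Alternatives covered scaling, the dim filter, probe set rules, replicate block, sex, females alone, variance trend, array weights and each array left out. Deviations of same-numbered arrays from their group means correlated at -0.17, 0.09 and -0.10. Such correlations cannot exclude that the replicate numbers pair littermates, and the main fit did not use a pairing. Probes of the targeted exons were not analysed here.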

Additional observations from a re-analysis of the deposited data

How the results depend on the processing

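Across 16 alternatives, *Lyz2* stayed lower and *Cd68* higher in every one, and each passed in 9. The number of markers passing was 2 as reported, 0 with the replicate block, 1 with sex as a covariate, 1 in the females alone, and between 0 and 1 with single arrays left out. The number of genes passing was 207 as reported, 370 with array weights, 83 in the females alone, 81 with the replicate block, and between 44 (without control 3) and 193 with single arrays left out. The replicate block also ended the calls of *Il34* (adjusted p = 0.0895) and *Traf6* (0.0984); for *Lyz2* it gave 0.106 and for *Cd68* 0.0692. Same-numbered animals were of the same sex, and whether they also shared a litter or a day of processing is not known here. With single arrays left out the median over the markers ran from -0.145 to 0.097. Why these values moved was not tested; fewer arrays were fitted in the females and with arrays left out. Without dim genes no value was given for those under the limit.

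Genes that did not pass changed sign as follows. In the females alone the difference was -0.000665 for *Fcgr3*, 0.037 for *Cd79a*, 0.012 for *Fcgr4*, -0.0080 for *H2-Aa*, -0.19 for *Itgam*, -0.11 for *Pecam1*, -0.089 for *Ptprc*, -0.070 for *Tgfb1* and 0.22 for *Tlr4*. With array weights it was 0.078 for *Cd79a*, 0.052 for *Fcgr2b* and -0.0018 for *Krt13*. With median centring it was 0.0074 for *Cd79a*, and with quantile normalization 0.010 for *Tlr4*. With single arrays left out the differences ran from -0.47 to 0.15 for *Csf1r*, -0.31 to 0.054 for *Cd3e*, -0.11 to 0.035 for *Cd79a*, -0.51 to 0.091 for *Copz2*, -0.12 to 0.089 for *Fcgr2b*, -0.093 to 0.058 for *Fcgr4*, -0.25 to 0.081 for *Flot1*, -0.075 to 0.16 for *Itgam*, -0.037 to 0.071 for *Krt13*, -0.074 to 0.15 for *Pecam1*, -0.021 to 0.20 for *Tgfb1*, -0.27 to 0.11 for *Tlr4* and -0.11 to 0.030 for *Usp19*. Calls gained were those of *Chil3* (3.01), *Epcam* (0.59), *Fabp4* (2.56) and *Mcpt4* (-0.94) with array weights, *Fabp4* (2.40) with the intensity trend, *Retnla* (-2.20) and *Lyve1* (-1.09) in the females alone, *Lyve1* (-0.97) without control 1, *Mcpt4* (-1.10) without control 2, *Cnn1* (-1.33) without mutant 2, and *Chil3* (3.35) and *Fabp4* (2.96) without mutant 3.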
